A study of Mus musculus with 2 samples.

Results

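The genes described here belong to insulin and leptin signaling or to glucose production in liver, and include the hormone leptin and appetite peptides of the hypothalamus. The list holds 43 protein-coding genes of 21938 in the GENCODE vM21 annotation (chromosomes 1 to 19, X and Y, mm10), chosen by name for their role. The choice was made with earlier results of these data known, so the counts below are not those of an independent list. A gene was counted as having a peak when a deposited ChIRP-seq peak shared at least 1 bp with the gene body or with the 5000 bp on either side of it. ChIRP retrieves an RNA, here the mouse lncRNA *Gm19619*, with antisense biotinylated probes and sequences the DNA fixed around it. Freshly isolated hepatocytes of 4 wild-type C57BL/6 females, 8 weeks old, were pooled and fixed with 3% formaldehyde, and the chromatin was retrieved either with the odd-numbered or with the even-numbered probes, giving 1 library each. No treatment is named for the cells, no library of input chromatin, of unrelated probes or of cells without *Gm19619* was analysed here, and neither library had a replicate. No test between the lists was therefore possible. The 95% Wilson intervals given below cover counting error only and treat the genes or peaks of 1 library as independent, which neighbouring genes and peaks are not. Reads without molecular identifiers are also not independent molecules. The lists hold DNA regions only, so the hepatocyte label could not be checked against marker transcripts. After removal of duplicates the odd library had 6972538 reads and the even library 7052802, and the deposited lists hold 14261 odd and 3637 even peaks.

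Insulin binds its receptor on hepatocytes and, through the IRS adaptors, PI3K and AKT, keeps the FOXO transcription factors out of the nucleus and lowers glucose output. Leptin, released by fat tissue, signals through its receptor with JAK2 and STAT3, mainly in the hypothalamus but also in the liver. Glucagon opposes insulin in fasting and, through cyclic AMP, activates CREB1 and CRTC2, which with PGC-1α and FOXO1 raise transcription of *Pck1* and *G6pc*, the genes for PEPCK and for glucose-6-phosphatase, the enzyme of the last step of gluconeogenesis.

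Of the 43 genes, 21 had an odd peak (48.8%, interval 34.6 to 63.2%), against 27.0% of all protein-coding genes. The even list reached 4 (9.3%, interval 3.68 to 21.6%), against 7.67%. The odd peaks were at *Jak2*, *Stat3*, *Stat5a*, *Stat5b*, *Agrp*, *Insr*, *Irs2*, *Grb2*, *Pik3r1*, *Pik3ca*, *Pik3cb*, *Gsk3b*, *Foxo1*, *Foxo3*, *Mtor*, *Rptor*, *G6pc*, *Pcx*, *Crtc2*, *Creb1* and *Slc2a2*. The even peaks were at *Irs2*, *Pdpk1*, *Pcx* and *Ppargc1a*. *Irs2* and *Pcx* had peaks of both lists, and 20 genes had none, among them *Lep*, *Lepr*, *Irs1*, *Akt1*, *Akt2* and *Pck1*.

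The listed genes are long, with a median of 49940 bp against 17425 bp for all protein-coding genes, and longer genes had a peak more often. Listed genes with an odd peak had a median length of 70816 bp and those without one 22297 bp. When every listed gene was set against the other protein-coding genes whose length differed from its own by a factor of at most 5/4 (from 376 genes for *Rptor* to 2738 for *Irs2*), the shares of those genes summed to 15.4 genes with an odd peak (35.9%) and 4.24 genes with an even peak (9.86%). The odd share from genes of similar length was above the 27.0% of all genes and inside the interval of the odd count. Counted per length, the windows of the listed genes held 1.18 odd peaks per 100 kb against 0.676 for all protein-coding genes, and 0.202 even peaks against 0.157. With peaks of at least 10-fold enrichment alone, 13 listed genes had an odd peak where genes of similar length gave 6.4, and 1 had an even peak where they gave 0.912.

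**Figure D1:**
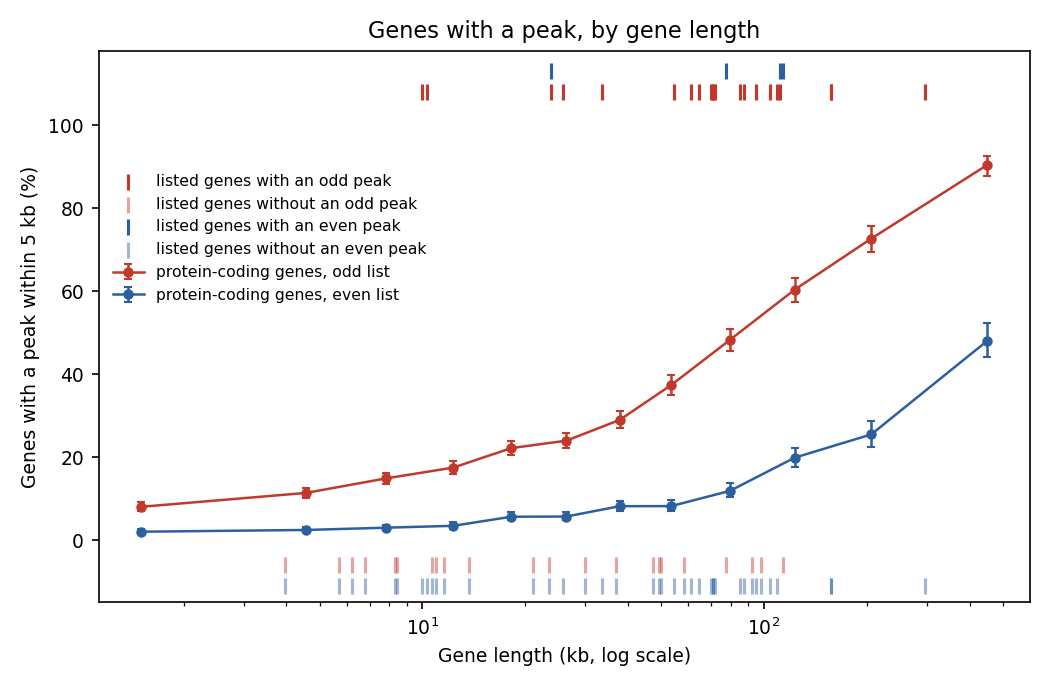
Share of protein-coding genes with a peak in the gene or within 5 kb, in percent, against gene length in kb on a log scale, for the odd (red) and even (blue) lists. Points are genes grouped by length, bars are 95% Wilson intervals, and ticks mark the 43 listed genes with a peak (top) and without one (bottom). The share rose with length in both lists, and the listed genes with an odd peak lie mostly toward the long end, with a median of 70816 bp.

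The windows of the 43 genes held 35 odd and 6 even peaks. Of the odd peaks, 26 had their summit in an intron, 2 in a coding exon, 2 in a 3′ UTR, 2 upstream and 3 downstream of the gene. Of the even peaks, 5 lay in introns and 1 in a coding exon. The pileup at the summit, which counts the reads covering it after each is extended to 200 bp, ran from 7 to 46 with a median of 15 at the listed odd peaks, against a median of 11 over the whole odd list. It ran from 8 to 18 with a median of 9.5 at the even peaks, against 9. The fold enrichment sets that pileup against the same background across a library, so within a list it restates the pileup. In the odd list a pileup of 14 gave 9.89 and a pileup of 15 gave 10.6. A fold enrichment of at least 10 was found in 18 of the 35 odd peaks (51.4%, interval 35.6 to 67.0%) and in 31.1% of the whole odd list. In the even list it was found in 1 of the 6 listed peaks (16.7%) and in 18.5% of all peaks. Pileups were not scaled between the libraries and are compared only within a list.

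**Figure D2:**
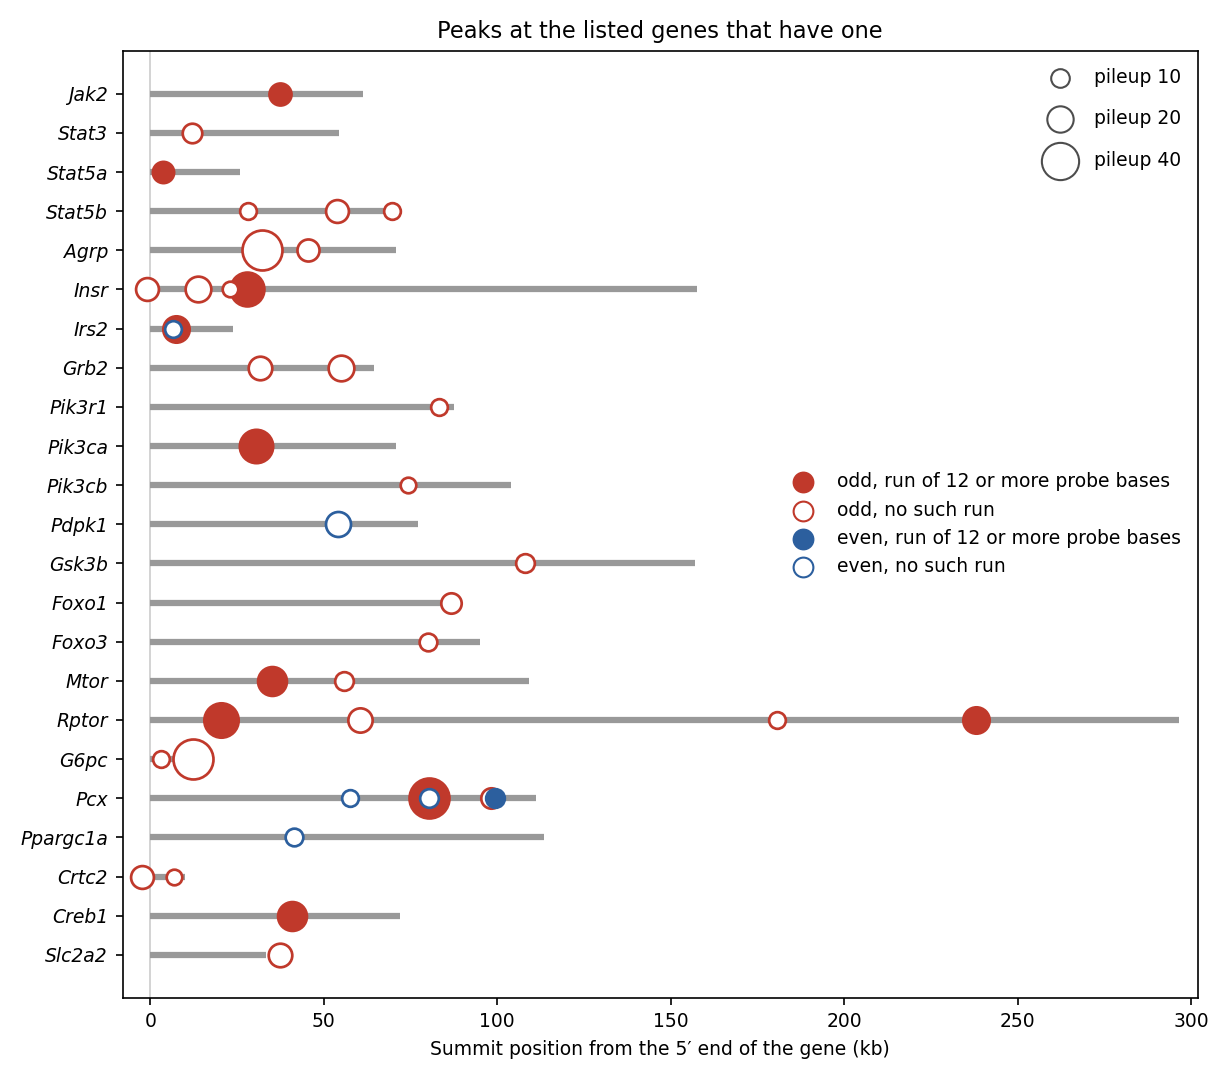
Summits along the 23 listed genes with a peak, in kb from the 5′ end of the gene, with the gene body as a grey bar, odd peaks in red and even peaks in blue. The circle area is proportional to the pileup and a filled circle marks a peak that shares at least 12 consecutive bases with a probe of its set, and most summits lie inside genes far from the 5′ end, with the highest odd pileup, 46, at *Agrp*, *G6pc* and *Pcx*.

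Because probes are DNA, they can also pair with genomic DNA that shares their letters, so the peaks were searched for stretches of the probes. The letters of 11 of the 14 probes matched the annotated *Gm19619* transcript exactly (6 odd and 5 even), and these were used. At least 12 consecutive bases shared with a probe of the same set on either strand, called a run here, were found in 10 of the 35 odd peaks (28.6%, interval 16.3 to 45.1%), where the whole odd list had 27.2%, and in 1 of the 6 even peaks (16.7%, interval 3.01 to 56.4%), where the even list had 23.3%. Regions placed 10000 bp away from the peaks held such a run in 0.259% of cases for the odd list and 0.0825% for the even list. No listed odd peak held a run of an even probe (0 of 35, where 3 counts would be a share of 8.57% and the Wilson interval reaches 9.89%), where the whole odd list had 0.231%. Of the 6 listed even peaks, 1, at *Pcx*, held a run of an odd probe (16.7%, interval 3.01 to 56.4%), where the whole even list had 1.37%. The 5 probes found in listed peaks have their sites in *Gm19619* on chromosome 5, shown here on the plus strand, which reads as the probe because the gene lies on the minus strand.
*Gm19619* site of probe 1, chr5:91283023-91283042: AAGGAGAGTGAAGTGGCAGT
*Gm19619* site of probe 3, chr5:91273978-91273997: TGTGCCATGTGAAAGCAGAG
*Gm19619* site of probe 4, chr5:91273865-91273884: TTCAAGGTCATTGACACACC
*Gm19619* site of probe 7, chr5:91258494-91258513: GGGAACTGAGCTGTGAGATG
*Gm19619* site of probe 9, chr5:91258311-91258330: CTATGGGTTCTGGACAGCTC

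The 11 listed peaks with a run are shown with the bases around it, on the strand that reads as the probe and with the run in capitals, because they show what these regions share with the probes. Probe 1 was found in 3 of them, probe 7 in 3, probes 3 and 9 in 2 each, and probe 4, an even probe, in 1.
*Jak2*, odd list, chr19:29289311-29289355, plus strand: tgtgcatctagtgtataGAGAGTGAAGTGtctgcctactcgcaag
*Stat5a*, odd list, chr11:100862974-100863018, plus strand: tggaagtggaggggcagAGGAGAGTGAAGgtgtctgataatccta
*Rptor*, odd list, chr11:119623210-119623254, plus strand: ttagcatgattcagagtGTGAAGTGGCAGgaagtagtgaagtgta
*Rptor*, odd list, chr11:119840791-119840835, plus strand: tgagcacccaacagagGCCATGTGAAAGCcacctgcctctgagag
*Creb1*, odd list, chr1:64573522-64573566, minus strand: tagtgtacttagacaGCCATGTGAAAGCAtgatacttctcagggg
*Insr*, odd list, chr8:3251597-3251641, minus strand: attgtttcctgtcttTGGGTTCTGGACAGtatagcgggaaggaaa
*Irs2*, odd list, chr8:11001014-11001058, minus strand: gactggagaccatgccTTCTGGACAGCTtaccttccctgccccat
*Pik3ca*, odd list, chr3:32428152-32428196, minus strand: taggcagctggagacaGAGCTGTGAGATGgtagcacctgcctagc
*Mtor*, odd list, chr4:148483765-148483809, plus strand: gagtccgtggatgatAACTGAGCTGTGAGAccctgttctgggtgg
*Pcx*, odd list, chr19:4590725-4590769, minus strand: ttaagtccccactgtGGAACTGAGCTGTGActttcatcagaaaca
*Pcx*, even list, chr19:4609941-4609985, plus strand: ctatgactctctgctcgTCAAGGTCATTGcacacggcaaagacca

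The first 3 of these runs are of probe 1, the next 2 of probe 3, then 2 of probe 9 and 3 of probe 7, and the last is of probe 4. Runs of at least 12 bases within a 20-base probe must overlap, and those of *Pik3ca*, *Mtor* and *Pcx* share GAGCTGTGA. In the 10 odd peaks the summit lay a median of 34 bp from the run and at most 81 bp, and inside it in 2, at *Mtor* and at the *Rptor* peak farthest from the start. The odd peaks with a run had a median pileup of 24 (13 to 46) and the 25 without one a median of 12 (7 to 46). Over the whole odd list these medians were 14 and 10, and the median rose with the length of the run from 12 at 12 bases to 25 at 15 bases. In the 25 odd peaks without a run, the best gap-free match to an odd probe had a median of 13 identical bases, against 12 and 13 in the regions 10000 bp to the left and to the right. Within these 25 peaks the best match was higher for the 6 odd probes than for the 5 even probes in 12, equal in 11 and lower in 2. The larger odd set has more chances of a high match. No such tally was made away from the peaks, so this split has no reference. Whether the runs brought the 11 listed peaks that hold one into the lists was not tested.

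**Figure D3:**
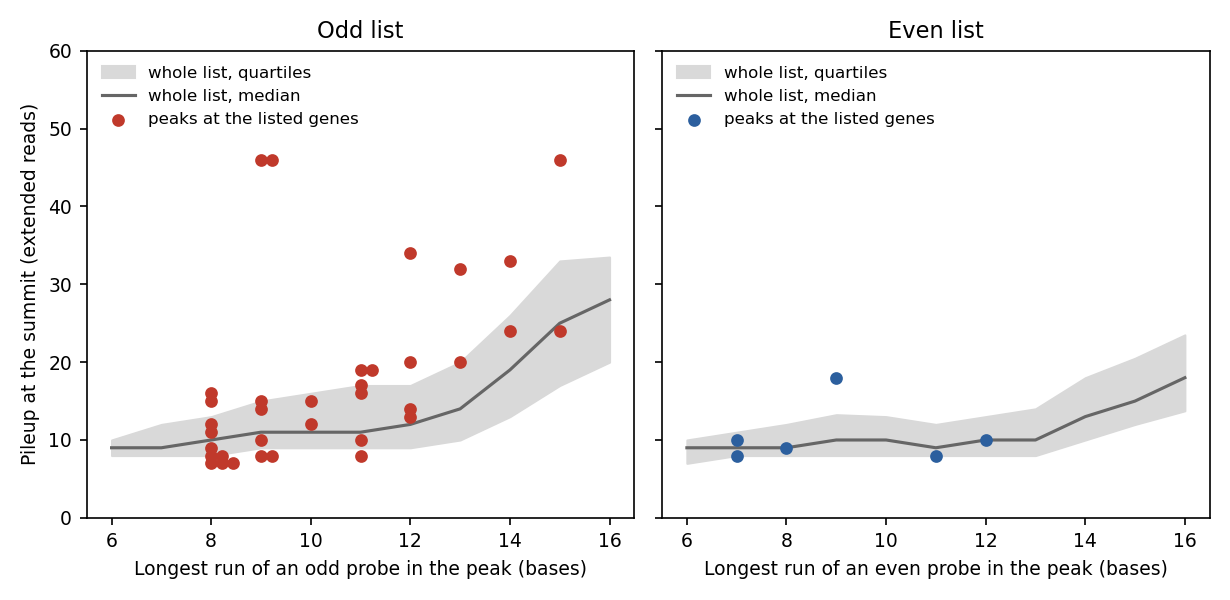
Pileup at the summit, in extended reads, against the longest run of a probe of the same set in the peak, in bases, for the odd and even lists. For the line and band, the value at 16 holds all peaks with runs of 16 bases or more. Points are peaks at the listed genes (points with equal values are set side by side), the line is the median of the whole list and the band its quartiles, and the whole odd list rises from a median of 12 at 12 bases to 25 at 15 bases, while the listed peaks at *Agrp* and *G6pc* reach 46 with a run of 9.

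In the leptin branch, 4 of 9 genes had an odd peak, where genes of similar length gave 2.8, and none had an even peak, where they gave 0.672. *Jak2*, the kinase bound to the leptin receptor, had 1 odd peak of pileup 14 at chr19:29289141-29289392, in an intron 37472 bp from the 5′ end, with the 12-base run of probe 1 shown above. *Stat3*, the main transcription factor of leptin signaling, had a peak of pileup 11 at chr11:100927373-100927578, in an intron and without a run. Its 2 neighbours on chromosome 11, *Stat5a* and *Stat5b*, which carry growth hormone and cytokine signals, had 1 and 3. The *Stat5a* peak, of pileup 13 at chr11:100862724-100863020, lay 2425 bp from an internal transcript start and held a 12-base run of probe 1. The *Stat5b* peaks were at chr11:100780909-100781109 in the 3′ UTR with a pileup of 8, at chr11:100796833-100797040 in an intron with a pileup of 15, and at chr11:100822495-100822694 with a pileup of 8. The last of them had its summit 53 bp from the start of an internal transcript, the shortest such distance among the 41 listed peaks. Its sequence from the 5′ edge of the peak on chromosome 11 is shown for that reason.
*Stat5b*, odd list, chr11:100822495-100822681, plus strand: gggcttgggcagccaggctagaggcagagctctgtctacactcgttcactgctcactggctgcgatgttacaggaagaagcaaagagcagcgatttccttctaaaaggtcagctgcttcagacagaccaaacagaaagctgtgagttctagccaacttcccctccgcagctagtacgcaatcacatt

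The receptor and the hormone themselves had no peak. The nearest odd peak was 19598 bp from *Lepr*, the leptin receptor, and the nearest even peak 737959 bp away, although 53.4% of genes of its length had an odd peak. For *Lep*, the hormone, these distances were 231271 and 673916 bp. The inhibitors *Socs3* and *Ptpn1* and the adaptor *Sh2b1* also had none, with odd peaks 7569, 24353 and 12512 bp away. *Socs3* was the closest to having a peak among the 20 genes with none, whose distances to the nearest odd peak had a median of 39354 bp and to the nearest even peak a median of 254858 bp.

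Of the 3 hypothalamic peptide genes that leptin acts on, *Npy* and *Pomc* had no peak and *Agrp*, an appetite-stimulating peptide, had 2 odd peaks. Their assignment to *Agrp* depends on the annotation. GENCODE has a long *Agrp* transcript that starts at position 105637393 of chromosome 8, and both peaks lay in its introns, while the other *Agrp* transcripts start at 105568298 and 105579845. The peak at chr8:105604689-105605866, 1178 bp long with a pileup of 46, had its summit 114 bp from the 5′ end of *Ripor1*, on the other strand at 105605255, and was the 1 listed peak within 3000 bp of the 5′ end of another protein-coding gene. The second, at chr8:105591659-105591939, had a pileup of 14. With RefSeq gene spans neither was counted for *Agrp*. Neither held a run. Pileup 46 was the highest value at the listed genes, reached or passed by 1.42% of the odd list, and the bases around the summit are shown because this peak tops the list without a run and lies at the start of a gene outside it.
*Agrp*, odd list, chr8:105605041-105605241, plus strand: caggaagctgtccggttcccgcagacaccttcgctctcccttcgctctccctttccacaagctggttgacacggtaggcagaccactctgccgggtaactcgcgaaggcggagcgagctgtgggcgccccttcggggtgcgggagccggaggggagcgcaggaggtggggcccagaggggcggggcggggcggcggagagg

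**Figure D4:**
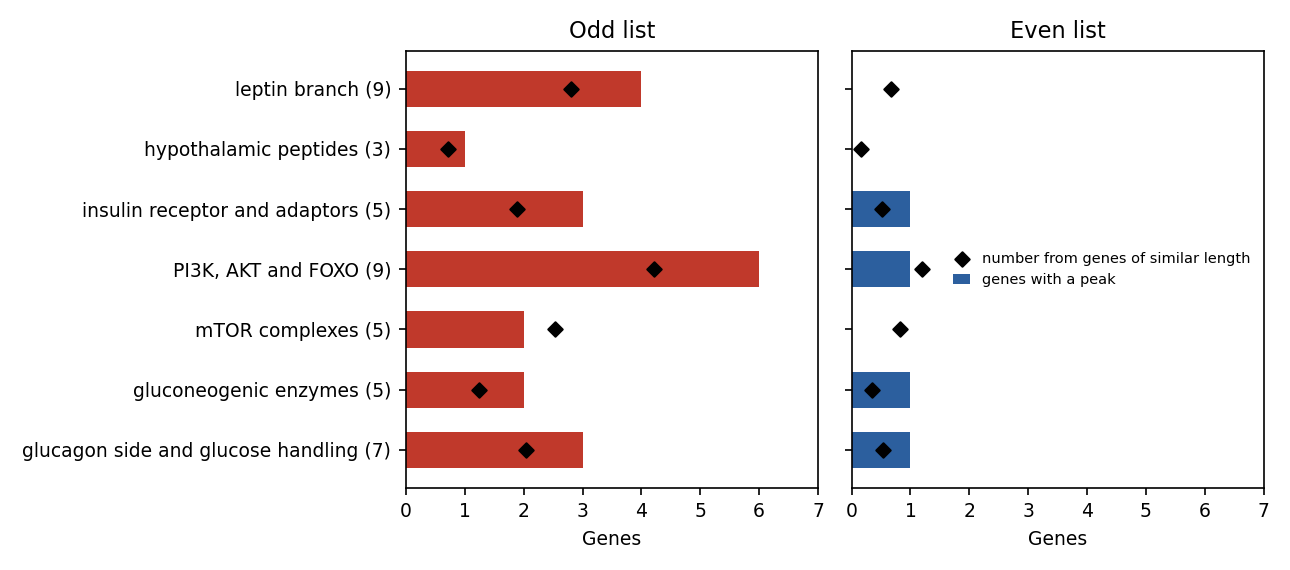
Number of genes with an odd (left) or even (right) peak in each group of listed genes, with the group's size in parentheses. Bars are the counts and diamonds the number given by protein-coding genes of similar length, and in the odd list the count was above the diamond in 6 of the 7 groups, with the mTOR complexes (2 genes against 2.53) below it and the peptides resting on *Agrp* alone, and in the even list in 3 of the 7.

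Among the insulin receptor and its adaptors, 3 of 5 genes had an odd peak, where similar length gave 1.88, and 1 had an even peak, where it gave 0.511. *Insr*, the insulin receptor, had 4 odd peaks and no even peak, the nearest being 860310 bp away. The highest, at chr8:3251395-3252049 with a pileup of 33, was 655 bp long and held a 14-base run of probe 9. The other 3 held no run. A peak of pileup 19 at chr8:3265592-3266367 lay in sequence that is 58.9% soft-masked, the mark for repeats in the reference. Its longest stretch shared with an odd probe was 11 bases of probe 3. Its best gap-free match had 17 identical bases, against 15 in each region 10000 bp away. A peak of pileup 7 at chr8:3256434-3256634 was among the lowest of the list. The last, at chr8:3280536-3280867 with a pileup of 15, began 919 bp upstream of the gene and was, with the *Stat5b* peak, the nearest to a start. Genes as long as *Insr* had an odd peak in 65.9% of cases. The bases around the summit of this upstream peak were as follows.
*Insr*, odd list, chr8:3280605-3280805, plus strand: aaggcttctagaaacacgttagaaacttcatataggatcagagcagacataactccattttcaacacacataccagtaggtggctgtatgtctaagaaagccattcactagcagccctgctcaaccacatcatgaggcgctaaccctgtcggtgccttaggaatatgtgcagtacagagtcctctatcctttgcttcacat

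*Irs2*, the main insulin receptor substrate of liver beside *Irs1*, had a peak of each list inside an intron. The odd peak, at chr8:11000886-11001505, had a pileup of 20 and a 12-base run of probe 9. The even peak, at chr8:11001862-11002191, had a pileup of 8 and no run of 12, with 11 bases of probe 6 as its longest. The peaks lay 357 bp apart and shared no base. *Grb2*, the adaptor that links receptors to RAS, had intron peaks of pileup 19 at chr11:115653511-115653823 and 16 at chr11:115676934-115677469, both without a run. *Irs1* and *Shc1* had none.

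Of the 9 genes of PI3K, AKT and FOXO, 6 had an odd peak, where similar length gave 4.22, and 1 had an even peak, where it gave 1.19. *Pik3ca*, the catalytic subunit p110α, had the highest, a pileup of 32 at chr3:32427980-32428601 in an intron, with a 13-base run of probe 7. The regulatory subunit *Pik3r1* had a pileup of 8 in the 3′ UTR at chr13:101684769-101684976, and the second catalytic subunit *Pik3cb* had a pileup of 7 in an intron at chr9:99066296-99066495. *Gsk3b*, a kinase that AKT inhibits, had a pileup of 10 at chr16:38196701-38197104. These 3 peaks held no run and lay below the median of the odd list. *Akt1* and *Akt2* had no peak, with the nearest odd peaks 17953 and 43372 bp away.

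*Foxo1*, the transcription factor that insulin restrains in gluconeogenesis, had 1 peak, at chr3:52354712-52354917 in the odd list. It was 206 bp long with a pileup of 12, reached or passed by 47.4% of the odd list, and lay downstream of the gene, 1491 bp from its 3′ end and 86539 bp from its start. It was within 5000 bp but not in the gene body, and its longest run was of 10 bases. Genes of the length of *Foxo1* had an odd peak in 49.5% of cases, and the nearest even peak was 67853 bp away. *Foxo3*, a related factor, had a pileup of 9 in a coding exon at chr10:42196521-42197090. Neither gene had a peak within 3000 bp of a start. The sequence around the *Foxo1* summit, up to the edge of the peak, is given because the gene is central to glucose output.
*Foxo1*, odd list, chr3:52354775-52354917, plus strand: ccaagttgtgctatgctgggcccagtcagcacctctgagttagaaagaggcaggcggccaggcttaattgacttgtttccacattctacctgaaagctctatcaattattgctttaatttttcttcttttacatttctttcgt

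*Pdpk1*, the kinase that activates AKT, had no odd peak, the nearest being 116318 bp away, and the highest even peak of the listed genes, 1312 bp long with a pileup of 18 at chr17:24095671-24096982. It lay in an intron, with its summit 2990 bp from an internal transcript start, and 92.5% of it was soft-masked. The 9-base unit ATGTGATGG occurred 92 times in the peak on the plus strand, counting overlapping copies, and was found at least once, on either strand, in 0.55% of all even peaks. Around the summit, where the unit is in capitals and occurs 15 times, the sequence was as follows.
*Pdpk1*, even list, chr17:24096688-24096888, plus strand: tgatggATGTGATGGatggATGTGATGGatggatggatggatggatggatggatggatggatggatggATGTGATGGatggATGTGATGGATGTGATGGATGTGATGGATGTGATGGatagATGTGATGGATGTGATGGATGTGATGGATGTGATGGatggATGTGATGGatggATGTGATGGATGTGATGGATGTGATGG

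Among the mTOR complexes, 2 of 5 genes had an odd peak, where similar length gave 2.53, and none had an even peak, where it gave 0.821. Both encode parts of complex 1, and *Mtor* is the kinase of complex 2 as well. *Mtor*, the kinase, had an intron peak of pileup 24 at chr4:148483594-148484046 whose summit lay inside a 15-base run of probe 7, and one of pileup 10 at chr4:148504370-148504570 without a run. *Rptor*, the scaffold Raptor and the longest listed gene at 296672 bp, had 4 intron peaks. They were at chr11:119622638-119623426 with a pileup of 34 and a 12-base run of probe 1, at chr11:119663175-119663533 with 17, at chr11:119783373-119783705 with 8, and at chr11:119840528-119840954 with 20 and a 13-base run of probe 3. Of genes of the length of *Rptor*, 81.1% had an odd peak. *Rictor*, which defines complex 2, and the inhibitors *Tsc1* and *Tsc2* had no peak.

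Among the gluconeogenic enzymes, 2 of 5 genes had an odd peak, where genes of similar length had one in 25% of cases, and 1 had 3 even peaks, where similar length gave 0.344 genes. *G6pc*, glucose-6-phosphatase, had 2 odd peaks, where 16.6% of genes of its length had at least 1. The first, at chr11:101370496-101370837 in an intron, had a pileup of 8 and its summit 3094 bp from the start. The second, at chr11:101379580-101380683, was 1104 bp long with a pileup of 46 and lay 1677 bp past the 3′ end, with its summit 12438 bp from the start. Neither held a run, and the second shared at most 9 consecutive bases with an odd probe. With the *Agrp* and *Pcx* peaks it had the highest pileup of the 35, and the bases around its summit are shown for that reason.
*G6pc*, odd list, chr11:101379899-101380099, plus strand: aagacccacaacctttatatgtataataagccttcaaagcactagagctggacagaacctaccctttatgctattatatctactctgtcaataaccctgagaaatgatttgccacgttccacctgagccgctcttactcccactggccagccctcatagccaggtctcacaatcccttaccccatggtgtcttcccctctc

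*Pcx*, pyruvate carboxylase, which feeds pyruvate into gluconeogenesis, was the 1 listed gene where the lists overlapped. The odd peak at chr19:4590183-4591304, 1122 bp long in an intron with a pileup of 46, held a 15-base run of probe 7. The even peak inside it, at chr19:4590725-4590932, had a pileup of 10, held no run of an even probe and held the same 15 bases of the odd probe 7, from position 4590740 to 4590754, with its summit at 4590740 and 53 bp from the odd one. This was 1 of 35 odd peaks (2.86%, interval 0.506 to 14.5%), where the whole odd list had 4.18%, and 1 of 6 even peaks (16.7%, interval 3.01 to 56.4%), where the even list had 16.2%. *Pcx* had a further odd peak of pileup 12 at chr19:4608473-4608766, and 1067 bp from it an even peak of pileup 10 in a coding exon at chr19:4609833-4610046, whose summit lay inside a 12-base run of probe 4. Its remaining even peak, of pileup 8, was at chr19:4567924-4568132.

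*Pck1*, the cytosolic PEPCK, had no peak, with the nearest odd peak 35610 bp away and the nearest even peak 802942 bp away, and 12.7% of genes of its length had an odd peak. *Pck2*, its mitochondrial form, and *Fbp1* had none either. *Pck1* is 6226 bp long, *Pck2* 10977 bp and *Fbp1* 23530 bp, all below the median of the listed genes.

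On the glucagon side and in glucose handling, 3 of 7 genes had an odd peak, where similar length gave 2.04, and 1 had an even peak, where it gave 0.533. *Creb1*, the cyclic AMP responsive factor, had an intron peak of pileup 24 at chr1:64573310-64573884, with a 14-base run of probe 3. Its summit lay 2787 bp from an internal transcript start and 40956 bp from the 5′ end of the gene. Its coactivator *Crtc2* had a peak of pileup 15 at chr3:90251471-90252081, which ended 2082 bp upstream of the gene and lay in a coding exon of *Slc39a1*, and one of pileup 7 in its own coding exon at chr3:90260884-90261097. *Slc2a2*, the glucose transporter GLUT2, had a pileup of 16 at chr3:28735089-28735440, 3730 bp past its 3′ end and in an intron of *1700112D23Rik*. This peak was not counted for *Slc2a2* with RefSeq gene spans. *Ppargc1a*, the coactivator PGC-1α, had an even peak of pileup 9 in an intron at chr5:51526319-51526519 and no odd peak, the nearest being 125621 bp away. With its longer RefSeq span the gene did have an odd peak. None of the *Crtc2*, *Slc2a2* and *Ppargc1a* peaks held a run. *Gcgr*, the glucagon receptor, *Gckr*, the inhibitor of glucokinase, and *Pklr*, the liver pyruvate kinase, had no peak.

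Near a start, that is within 3000 bp of the start of any annotated transcript of the gene, 6 of the 43 genes had an odd peak (14%, interval 6.56 to 27.3%), against 10.5% of all protein-coding genes. They were *Stat5a*, *Stat5b*, *Insr*, *G6pc* (by the edge of its peak), *Crtc2* and *Creb1*. For the even list it was 1 gene, *Pdpk1* (2.33%, interval 0.412 to 12.1%), against 2.18%. With 1000 bp in place of 3000 bp these counts were 2 and 0, and with the 5′ end of the gene record as the only start 3 and 0. The starts near the *Stat5a*, *Stat5b*, *Creb1* and *Pdpk1* peaks were internal. Those summits lay 3559, 28143, 40956 and 54136 bp from the 5′ end of the gene. The shares near a start were not matched for gene length. No share over all protein-coding genes was set beside the alternative counts. The summit was farther than 3000 bp from every start of the gene in 29 of the 35 odd and 5 of the 6 even peaks.

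A second list of 73 genes of the same pathways was examined alongside. Of these, 28 had an odd peak (38.4%, interval 28.1 to 49.8%), where genes of similar length gave 25.1 (34.4%), and 13 had an even peak (17.8%, interval 10.7 to 28.1%), where they gave 6.96 (9.53%). With at least 10-fold enrichment the even count was 3, and no share of genes of similar length was set beside it. The odd peak with the highest pileup was at *Crtc3*, a relative of *Crtc2*, with 62 at chr7:80653372-80654505, and this gene had 5 odd peaks. *Foxo4* had a pileup of 39 at chrX:101253801-101254607, with the summit 188 bp from a start, and *Tat*, an amino acid-degrading enzyme of fasting liver, had 39 in a coding exon at chr8:109991264-109991802. *Phlpp1*, a phosphatase acting on AKT, had 37 at chr1:106337674-106338256, where an even peak of pileup 9 overlapped it and 67.2% of the odd peak was soft-masked. None of these 4 odd peaks held a run. The highest even peak was at *Sos2*, an activator of RAS, with 21 at chr12:69653988-69654317, overlapping an odd peak of pileup 20, and neither held a run. *Prkcz* had an even pileup of 19 and *Ghr*, the growth hormone receptor, 13, both with a 13-base run of probe 2, and *Deptor*, an inhibitor of mTOR, had 15 without a run.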

How the data were processed

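The ChIRP-seq peak lists of 1 odd and 1 even library were used, assigned from their labels. The authors mapped 101-bp reads to mm10 (the submitters' processing notes name Novoalign 4.02.02 and SAMtools 1.9) and ran the peak caller MACS2 (2.1.1.20160309) on each library alone, with neither a control nor a local background, keeping 1 read per position, extending reads to 200 bp and limiting the q-value to 0.05. Of 61155168 odd and 65783155 even mapped reads, 11.4% and 10.7% remained, which limits weak peaks. As deposited, the pileup is a signal the authors took at the summit, the fold enrichment their ratio to background, and the −log10 p-value and q-value columns, whose headings were damaged, were identified by their order. In the even list, 1 start was restored from the end and length. Regions that gather reads regardless of the probes stay in the lists, as no control was subtracted.

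From these, peaks were counted at genes with Python 3.11.15, numpy 2.4.6, pandas 2.3.3, scipy 1.17.1 and pysam 0.24.0, and plotted with matplotlib 3.10.9. The letters of the probes came from the study's probe list and were used where they matched the *Gm19619* transcript exactly. Printed sequences are from the RefSeq copy of GRCm38.p6, the same build as mm10. The counting and the search for runs were tested on simulated data. All listed genes with a peak are named, and of the second list those with the 4 highest pileups in each peak list, with distances given for genes without peaks in the leptin branch and for *Foxo1*, *Pck1* and *G6pc*. *Socs3*, *Akt1* and *Akt2* distances, and the count of the repeat unit, were added after the values were seen. The genes and lists were chosen with earlier results of these data known. Alternatives were other peak thresholds, windows, assignment by summit, definitions of similar length and of a start, overlap rules and run lengths. RefSeq gene spans were added after the data were seen. No comparison between conditions was possible.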

Additional observations from a re-analysis of the deposited data

How the results depend on the processing

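At the listed peaks the fold enrichment and the q-value followed the pileup within a list, so both thresholds act as pileup cutoffs. Peaks with at least 10-fold enrichment gave the largest shifts. With these, 13 listed genes had an odd peak, at 18 peaks, where genes of similar length gave 6.4, and 3 had one near a start. For the even list 1 gene had 1 such peak, where similar length gave 0.912, with 0 peaks holding a run, and 0 odd peaks overlapped an even peak. In the second list 17 genes had an odd and 3 an even peak. At a −log10 q of at least 5, the even count of the second list was 8. Within 1000 bp of a start, 2 listed genes had an odd and 0 an even peak, and with the 5′ end of the gene record as the start 3 and 0. Counting a gap of up to 500 bp as overlap gave 2 odd peaks, through *Irs2*. Runs of 10 bases were found in 18 odd and 2 even peaks, and runs of 14 in 4 and 0. Of all 14261 odd peaks, the longest run was 10 bases in 2082, 11 in 1701 and at least 12 in 3879. Of all 3637 even peaks, these counts were 171, 195 and 846. Runs of 14, 15 and at least 16 bases were the longest in 563, 191 and 56 odd and 162, 63 and 40 even peaks. Apart from these list counts and the similar-length numbers given, no share over all genes or peaks was set beside the counts above. Each setting admits fewer or more peaks, bases or starts, and the cause of these shifts was not tested. The other 60 values kept within 1.5 times of those reported. With RefSeq spans, added after the data were seen, 20 genes had an odd peak (without *Agrp* and *Slc2a2*, with *Ppargc1a*) at 37 peaks, and 4 genes an even peak at 7. No paired analysis was possible because each probe set gave 1 library and no test was made.

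A peak missing from a list is not a measured level of 0, since only regions past the q-value limit are listed. The pooled animals, the pull-down and the library cannot be told apart within a probe set, and the absence of a control library applies to every count above.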
